A study of Homo sapiens with 48 samples.

Results

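The p38 and JNK kinases and the kinases that switch them on were followed in HEK293 cells stimulated through the angiotensin II receptor and the EGF receptor. The 10 genes are MAP2K3 and MAP2K6, which activate p38, MAP2K4 and MAP2K7, which activate JNK, the p38 genes MAPK11, MAPK12, MAPK13 and MAPK14, and the JNK genes MAPK8 and MAPK9. They are 10 of the 60610 genes in the count table, were picked by name, all passed the filter on low counts, and include MAP2K6 because its RNA had been seen to be low after 6 h with both stimuli. For that reason the values of that comparison are given for all 10 genes as a description without a p-value, and MAP2K6 has no p-value and is not counted among called genes in any comparison that uses its control 6 h or AII + EGF 6 h libraries.

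HEK293 is a line of human embryonic kidney cells. All libraries came from 1 clone that stably expresses AT1R, a receptor of angiotensin II (AII), from a transfected plasmid. The clone carries puromycin resistance and was raised with losartan, which blocks the receptor. Stimulation took place in serum-free DMEM, and poly(A) RNA was sequenced. The 8 groups were control 6 h and control 24 h without a stimulus, AII 6 h and AII 24 h with 1 nM AII, EGF 6 h and EGF 24 h with 10 µg/L EGF, and AII+EGF 6 h and AII+EGF 24 h with both at the same doses. The labels give 6 libraries to each group and do not say whether they came from separate cultures, so p-values measure only the spread between these libraries, which may be technical.

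Mitogen-activated protein kinases work in chains. A MAP3K phosphorylates a MAP2K, which phosphorylates a MAPK on a threonine and a tyrosine, and the MAPK then acts on further kinases and on transcription factors. The p38 and JNK chains are best known for responses to stress and cytokines, while the parallel ERK chain is the classical route of growth factors such as EGF. These data measure RNA of the kinases and not their phosphorylation.

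Some libraries stood apart. Of 1128 pairs of libraries, 4 pairs differed by less than the sampling of reads gives, with a chi-square per degree of freedom from 0.397 to 0.505 against 2.02 for the next pair. In 3 of these 4 pairs the libraries carried labels of different groups. On a scale over 1490 genes set to 0 for AII 6 h and 1 for AII+EGF 6 h, replicate 6 under the label AII 6 h was placed at 0.854 and replicate 6 under the label AII+EGF 6 h at -0.007, against -0.046 to 0.026 and 0.978 to 1.023 for the other libraries of these groups outside the pairs. The genes and both ends of this scale were taken from those other libraries, so their own closeness to 0 and 1 was built in. The 4 pairs and the replicates 6 of both groups, 10 libraries together, were left out. Some values of MAP2K6, MAP2K4, MAPK8 and MAPK11, ranges over the other fits and counts of called genes are given with them as well. The values of the other genes are otherwise given for the kept libraries only. The 38 libraries kept were 4, 5, 3 and 4 for control, AII, EGF and AII + EGF at 6 h and 6, 5, 5 and 6 at 24 h, and held 17.8 to 29.96 M counts. The EGF 6 h libraries were the deepest, with 28.03 to 29.96 M. AGTR1, the gene of the transfected receptor, lay between 3962 and 15220 CPM (counts scaled to library size), and the neurofilament gene NEFM, which HEK293 cells express, between 2405 and 9529 CPM. Of the other HEK293 markers PAX2 was low, at 0.274 to 3.90 CPM. The defining markers of blood cells, endothelium, hepatocytes and skeletal muscle, PTPRC, CDH5, ALB and MYH1, reached at most 0.399 CPM in any library.

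MAP2K6, an activator of p38 (ENSG00000108984, chromosome 17, 69414697 to 69553865, plus strand, GRCh38), was the gene of the 10 with the largest difference. RefSeq places its first start in the window chr17:69414447-69414746, plus strand, GRCh38.p14, shown here because MAP2K6 RNA was lowest against control. MAP2K4, an activator of JNK (ENSG00000065559, chromosome 17, 12020877 to 12143828, plus strand), was higher in the same cells, and its window is chr17:12020627-12020926, plus strand. Both windows hold 300 bases around the start, and the capitals mark a match to a searched motif.
MAP2K6: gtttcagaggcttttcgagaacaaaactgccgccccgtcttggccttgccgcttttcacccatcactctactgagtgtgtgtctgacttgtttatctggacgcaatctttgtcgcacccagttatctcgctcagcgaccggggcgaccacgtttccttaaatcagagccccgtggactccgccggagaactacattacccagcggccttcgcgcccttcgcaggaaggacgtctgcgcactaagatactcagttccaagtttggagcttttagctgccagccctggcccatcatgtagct
MAP2K4: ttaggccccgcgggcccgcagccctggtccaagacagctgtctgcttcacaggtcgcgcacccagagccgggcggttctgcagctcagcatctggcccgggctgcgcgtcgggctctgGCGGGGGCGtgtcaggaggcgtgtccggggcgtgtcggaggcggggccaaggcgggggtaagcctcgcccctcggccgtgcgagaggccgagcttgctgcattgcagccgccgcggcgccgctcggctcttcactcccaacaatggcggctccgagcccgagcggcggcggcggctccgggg
The window of MAP2K6 had a GC content of 55.0% and that of MAP2K4 74.7%. Motifs of factors that act after MAPK signalling were searched on both strands. They were the serum response factor motif (CArG box), the AP-1 motif TGANTCA, the CRE motif TGACGTCA, the EGR motifs GCGGGGGCG and GCGTGGGCG, the ETS motif CCGGAAGT, the FOXO motif GTAAACA and the PEA3 motif AGGAAGT, which can share bases with an ETS match. The window of MAP2K6 held none of these letters, which says nothing about the factors. That of MAP2K4 held GCGGGGGCG at 12020745 to 12020753, 132 bases before the start (offset -132), as did 5.07% of 35116 RefSeq promoter windows of the same length. Among the other members MAP2K3 held TGANTCA, present in 7.71% of windows, and MAPK8 held GCGGGGGCG at 2 places. The third start of MAPK9 held CCGGAAGT, present in 4.14%. The remaining shares of all windows were 1.29% for the CArG box, 1.85% for TGACGTCA, 0.795% for GCGTGGGCG, 3.42% for GTAAACA and 8.24% for AGGAAGT. A match is a description of letters and not a binding site.

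MAP2K6 RNA was lowest in the cells that had received both stimuli for 6 h. The control 6 h libraries gave 9.58, 10.9, 11.99 and 7.54 CPM. The AII 6 h libraries gave 6.47, 7.25, 6.29, 4.95 and 7.48 CPM, and the EGF 6 h libraries 5.81, 4.48 and 3.89 CPM. The AII+EGF 6 h libraries gave 1.07, 1.34, 1.44 and 1.70 CPM, from 22 to 33 counts each. Every stimulated library kept lay below every control library, and every library with both stimuli lay below every library with 1 of them. The libraries of AII and of EGF overlapped. In bulk RNA, fewer cells with the transcript and less transcript per cell cannot be told apart.

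**Figure D1:**
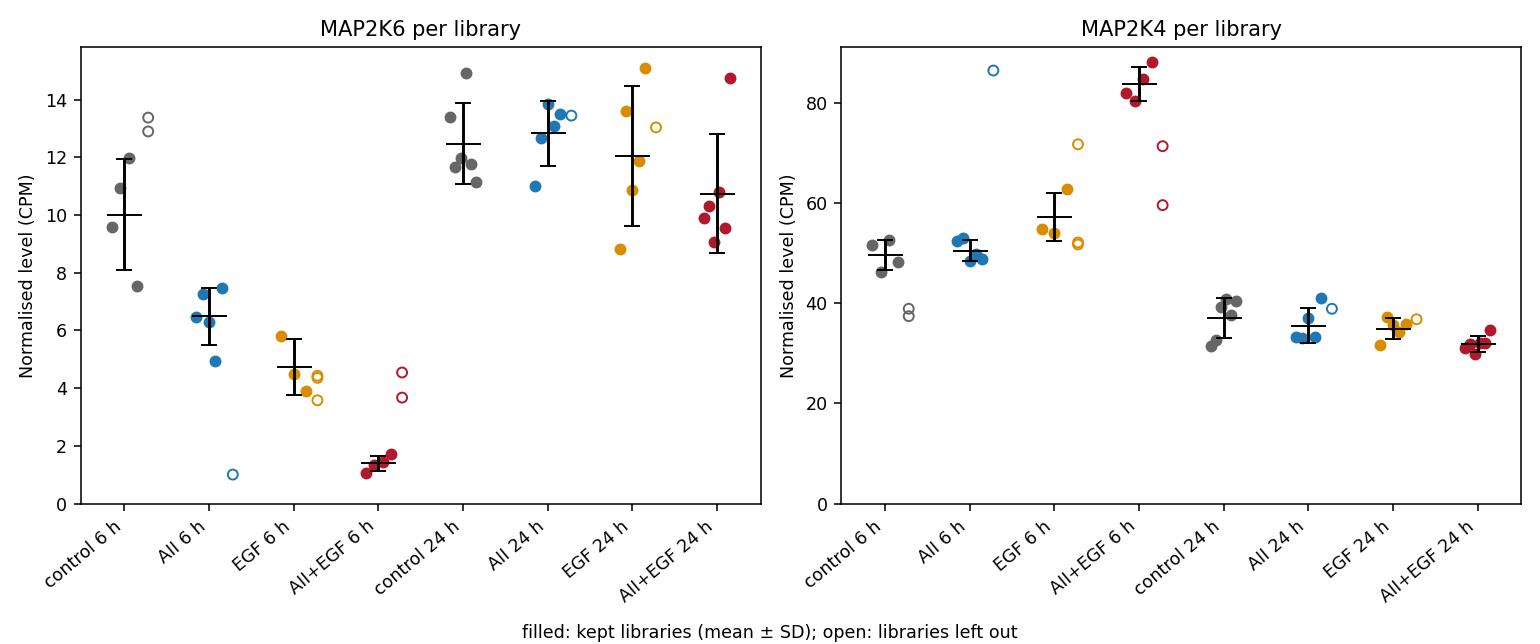
Normalised level in CPM of MAP2K6 (left) and MAP2K4 (right) in each library of the 8 groups, with horizontal bars for the mean and error bars for the SD of the kept libraries (filled points). Open points are the 10 libraries left out. The 4 kept AII+EGF 6 h libraries have the lowest MAP2K6 and the highest MAP2K4 levels of all kept libraries.

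The means at 6 h were 10.0 ± 1.92 CPM in control (SD, n = 4), 6.49 ± 0.997 with AII (n = 5), 4.73 ± 0.979 with EGF (n = 3) and 1.39 ± 0.261 with AII + EGF (n = 4). On the log2 scale MAP2K6 differed from control by -0.62 ± 0.16 with AII (SE), by -1.08 ± 0.19 with EGF and by -2.84 ± 0.20 with both. The last is 0.139 of the control level. These 3 comparisons share the control libraries. Against the single stimuli the difference of AII+EGF was -1.76 ± 0.21 from EGF and -2.22 ± 0.19 from AII. EGF alone differed from AII alone by -0.46 ± 0.18, which was not significant (adjusted p = 0.192, edgeR). The interaction of AII and EGF, which is how far the joint log2 change goes beyond the sum of the single changes, was -1.14 ± 0.26 and is a description here.

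A gene was called where the adjusted p was under 0.01, the change at least 1.5-fold and the mean above 5 CPM in the higher group. Among all 19626 genes tested, 0.469% were called for AII 6 h, 1.94% for EGF 6 h and 12% for AII+EGF 6 h against control. Of the 9 members with a test, edgeR and DESeq2 called 0 for AII 6 h and for EGF 6 h, and the unadjusted edgeR p was under 0.05 in 0 and 1 of them. The share of genes without overlap between the groups was 7.52%, 22.1% and 33.4% in the same order. Of the 10 members, 1, 3 and 2 did not overlap. MAP2K6, which was picked on the control 6 h and AII+EGF 6 h libraries, was in each count. These counts are therefore a description and not a comparison with the shares.

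With the 10 doubtful libraries included, the order of the groups at 6 h was less clear-cut. The library labelled AII 6 h replicate 6 had 1.00 CPM of MAP2K6, and those labelled AII+EGF 6 h replicates 4 and 6 had 3.67 and 4.54 CPM. Control 6 h replicates 1 and 2 had 12.9 and 13.4 CPM, and EGF 6 h replicates 1, 2 and 6 had 3.58, 4.36 and 4.43 CPM. Over all 48 libraries the log2 change against control was -0.99 with AII, -1.33 with EGF and -2.23 with both. With only the near-identical pairs left out it was -0.84, -1.08 and -2.26. The fall with both stimuli was present in all 3 sets of libraries. Each set holds the kept libraries on which MAP2K6 was picked, so this is a description only. The interaction at 6 h ranged over the alternatives from -1.17 to 0.09, and its direction rests on the libraries left out.

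The titles of the samples run through the 4 treatments several times, and 2 such stretches at 6 h held kept libraries of all 4 groups. In the first, MAP2K6 was 10.3 CPM in control (n = 2), 5.62 with AII (n = 2), 5.14 with EGF (n = 2) and 1.44 with both (n = 1). In the second it was 11.99, 7.48, 3.89 and 1.70 CPM with 1 library each. The order was that of the pooled means in both stretches. These libraries are part of the pooled means and of those on which MAP2K6 was picked, so the order is a description only.

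After 24 h no difference of MAP2K6 between the groups was detected. Control lay between 11.2 and 14.9 CPM with a median of 11.9, and the mean was 12.5 ± 1.41 (SD, n = 6). AII gave 12.8 ± 1.11 (n = 5), EGF 12.1 ± 2.43 (n = 5) and AII + EGF 10.7 ± 2.06 CPM (n = 6, from 9.08 to 14.8 with a median of 10.1). The groups overlapped. The log2 changes were 0.04 ± 0.14 with AII (adjusted p = 1.00), -0.05 ± 0.14 with EGF (adjusted p = 0.920) and -0.21 ± 0.13 with both (adjusted p = 0.272, edgeR). Leaving out 1 library at a time put the change with both against control between -0.33 and -0.16 (adjusted p from 0.0602 to 0.473, edgeR). The level with both differed from that with AII alone by -0.25 ± 0.14 (adjusted p = 0.250) and from that with EGF alone by -0.17 ± 0.14 (adjusted p = 0.711). The interaction at 24 h was -0.21 ± 0.20 (adjusted p = 0.998). The response to both stimuli differed between 24 h and 6 h by 2.63 ± 0.24, again given without a p-value. Of all genes, 0% were called for AII 24 h and for the interaction at 24 h by edgeR. DESeq2 also called 0 in each, while the unadjusted edgeR p was under 0.05 in 343 and 660 genes. The shares called were 0.245% for EGF 24 h and 2.9% for AII+EGF 24 h against control, 1.45% and 0.0917% for AII+EGF 24 h against AII 24 h and EGF 24 h, and 0.673% for EGF 6 h against AII 6 h.

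MAP2K3, the other main activator of p38 (ENSG00000034152, chromosome 17, 21284711 to 21315240), did not follow MAP2K6. At 6 h it gave 39.4 ± 5.12 CPM in control, 40.8 ± 2.53 with AII, 42.3 ± 3.47 with EGF and 38.2 ± 4.08 with both (SD, n as for MAP2K6). Its log2 change was 0.05 ± 0.13 with AII (adjusted p = 0.930), 0.10 ± 0.15 with EGF (adjusted p = 0.796) and -0.05 ± 0.14 with both. After 24 h its change with both stimuli was 0.18 ± 0.11 (adjusted p = 0.276). Groups overlapped in all of these comparisons.

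Divided by the length of the reference transcript, MAP2K6 made up 4.10 ± 0.642% of the sum of MAP2K3 and MAP2K6 in control 6 h (SD, n = 4), 2.62 ± 0.440% with AII, 1.86% with EGF and 0.607 ± 0.0721% with both. At 24 h it was 6.35% in control and 4.93 ± 1.67% with both stimuli (n = 6). The reference transcript of MAP2K6 has 13405 bases, of which 1002 are coding, against 2256 and 1041 for MAP2K3, so the share depends on the length that is used. By coding length it was 20.8% in control 6 h and 3.63% with both stimuli at 6 h. Another length rescales both groups alike, so the share was bound to be lower with both stimuli for each length. That is a description, as MAP2K6 was picked on these 6 h libraries. MAP2K3 was the more abundant RNA in each group.

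Ranked by CPM per kilobase of the reference transcript in control 6 h, MAPK12 came first with 37.1, followed by MAP2K7 with 27.9. MAP2K3, MAPK14, MAPK9, MAPK8 and MAP2K4 followed with 17.5, 17.5, 17.2, 14.9 and 13.2. MAPK11 had 3.53, MAP2K6 0.747 and MAPK13 0.327 CPM per kilobase. The libraries of MAPK12 and MAP2K7 overlapped, as did those of MAP2K3 with MAPK14, of MAPK14 with MAPK9 and of MAPK9 with MAPK8. The other neighbours did not overlap. This order depends on the length used. MAPK12 has 1778 bases in the reference transcript, 1101 coding and 9315 over all exons, against 3375, 1257 and 5145 for MAP2K7. By coding length or by all exons MAPK12 does not come first.

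**Figure D2:**
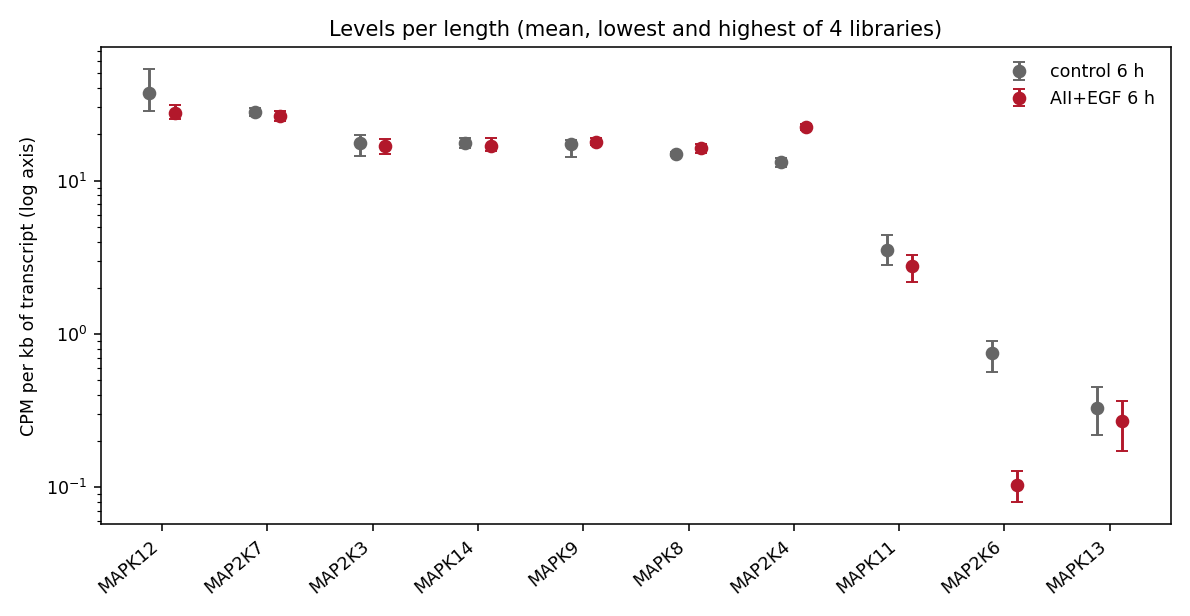
Level of the 10 genes in CPM per kilobase of transcript on a log axis in control 6 h and AII+EGF 6 h, with points for the mean and bars from the lowest to the highest of 4 libraries each. MAP2K6 drops below MAPK13 with both stimuli, MAP2K4 moves up, and the bars of the other 8 genes overlap between the groups.

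MAP2K4 went the other way. The control 6 h libraries gave 51.7, 46.2, 52.8 and 48.2 CPM, and the EGF 6 h libraries 54.9, 54.1 and 62.8 CPM. The AII+EGF 6 h libraries gave 82.0, 80.5, 84.9 and 88.2 CPM, and the AII 6 h libraries lay between 48.6 and 53.0 CPM. All 4 libraries with both stimuli lay above all other kept libraries at 6 h, and the AII libraries overlapped those of control.

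The means of MAP2K4 at 6 h were 49.7 ± 3.04 CPM in control (SD, n = 4), 50.6 ± 2.03 with AII (n = 5), 57.3 ± 4.80 with EGF (n = 3) and 83.9 ± 3.39 with both (n = 4). Against control the log2 change was 0.03 ± 0.08 with AII (adjusted p = 0.942), 0.20 ± 0.09 with EGF (adjusted p = 0.216) and 0.76 ± 0.09, 1.69-fold, with both. Against AII 6 h the level with both was 1.66-fold higher (log2 0.73 ± 0.08, adjusted p = 4.41e-09, edgeR), which was called, as were 7.6% of all genes in that comparison and 1 of the 9 members with a test. Against EGF 6 h it was 1.47-fold higher (0.55 ± 0.09, adjusted p = 5.93e-05), under the fold minimum, and 2.92% of genes were called. Of all genes 27.9% did not overlap between AII+EGF 6 h and AII 6 h and 30.4% between AII+EGF 6 h and EGF 6 h. Of the members 3 and 2 did not, with MAP2K6 again in both counts, so these are a description as well. EGF differed from AII by 0.18 ± 0.09 (adjusted p = 0.336). The interaction of 0.53 ± 0.12 missed the threshold (adjusted p = 0.0254), and 0.229% of genes were called in it. These were 45 genes, against 91 by DESeq2 and 0 by edgeR both with all 48 libraries and with only the pairs left out, where the unadjusted p was under 0.05 in 901 and 691 genes. With all 48 libraries the log2 change of AII + EGF at 6 h was 0.75 against control, 0.45 against AII (adjusted p = 0.00660) and 0.42 against EGF (adjusted p = 0.0229), and the interaction was 0.12. The call against AII 6 h was lost because of the fold minimum. Over the other fits the change against EGF 6 h lay between 0.42 and 0.57, with an adjusted p of up to 0.0770 (edgeR or DESeq2). Within the stretches of titles with all 4 groups MAP2K4 was 48.9 CPM in control and 84.9 with both in the first and 52.8 and 88.2 in the second.

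At 24 h MAP2K4 was lower in all groups. Control gave 37.1 ± 4.06 CPM (SD, n = 6), AII 35.6 ± 3.56 (n = 5), EGF 34.95 ± 2.09 (n = 5) and AII + EGF 31.95 ± 1.60 (n = 6). The log2 change with both stimuli was -0.21 ± 0.07 and did not pass the threshold (adjusted p = 0.0279), and the libraries overlapped. The joint response at 24 h minus that at 6 h was -0.97 ± 0.11 (adjusted p = 1.76e-08), and it stayed under the threshold in every alternative (adjusted p from 4.66e-16 to 0.000352). Of all genes, 11.6% were called in this difference of responses. The annotated gene overlaps ZNF18 at its start and contains MIR744. It is not known whether the reads were counted by strand, so reads of the shared stretches cannot be told apart, which also holds for MAP2K6 with its antisense gene MAP2K6-AS1 and for MAPK8 with ARHGAP22.

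MAP2K7, the other activator of JNK (ENSG00000076984, chromosome 19, 7903877 to 7914478), was higher with both stimuli at 24 h. At 6 h its mean lay between 86.3 and 94.0 CPM in the 4 groups, and its log2 change was -0.04 ± 0.09 with AII (adjusted p = 0.907), -0.12 ± 0.10 with EGF (adjusted p = 0.593) and -0.08 ± 0.09 with both. At 24 h control gave 75.4 to 105 CPM with a median of 96.1, and AII + EGF gave 105 to 138 CPM with a median of 124. The highest control library lay just above the lowest library with both stimuli. The means were 94.6 ± 10.3 and 123 ± 12.8 CPM (SD, n = 6 each), a rise of 1.30-fold (log2 0.38 ± 0.08, adjusted p = 0.000431, edgeR), under the fold minimum of a call. It was also 1.26-fold higher than with AII alone (0.33 ± 0.08, adjusted p = 0.00592), and 0.29 ± 0.08 higher on the log2 scale than with EGF alone, which did not pass (adjusted p = 0.0861). Single stimuli gave 97.9 ± 5.80 with AII and 100.4 ± 10.6 CPM with EGF (n = 5 each), and neither differed significantly from control (adjusted p = 1.00 and 0.681). The response to both stimuli was larger at 24 h than at 6 h by 0.46 ± 0.12 (adjusted p = 0.00383). In a fit of only the groups compared the adjusted p was 0.0226 against control, 0.0379 against AII and 0.0126 for the difference of responses. Over all other fits (edgeR or DESeq2) the adjusted p of that difference reached 0.02045. Without AII 24 h replicate 2, 3 or 6 or AII+EGF 24 h replicate 1, 3, 4 or 5 the adjusted p against AII lay above 0.01, at up to 0.0243, as did that of the difference of responses, at up to 0.0124, without AII+EGF 6 h replicate 1 or 3 or control 6 h replicate 5. No member was called against control at 24 h, and none was without overlap, where 0.127% of all genes with AII, 1.53% with EGF and 4.73% with both were.

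**Figure D3:**
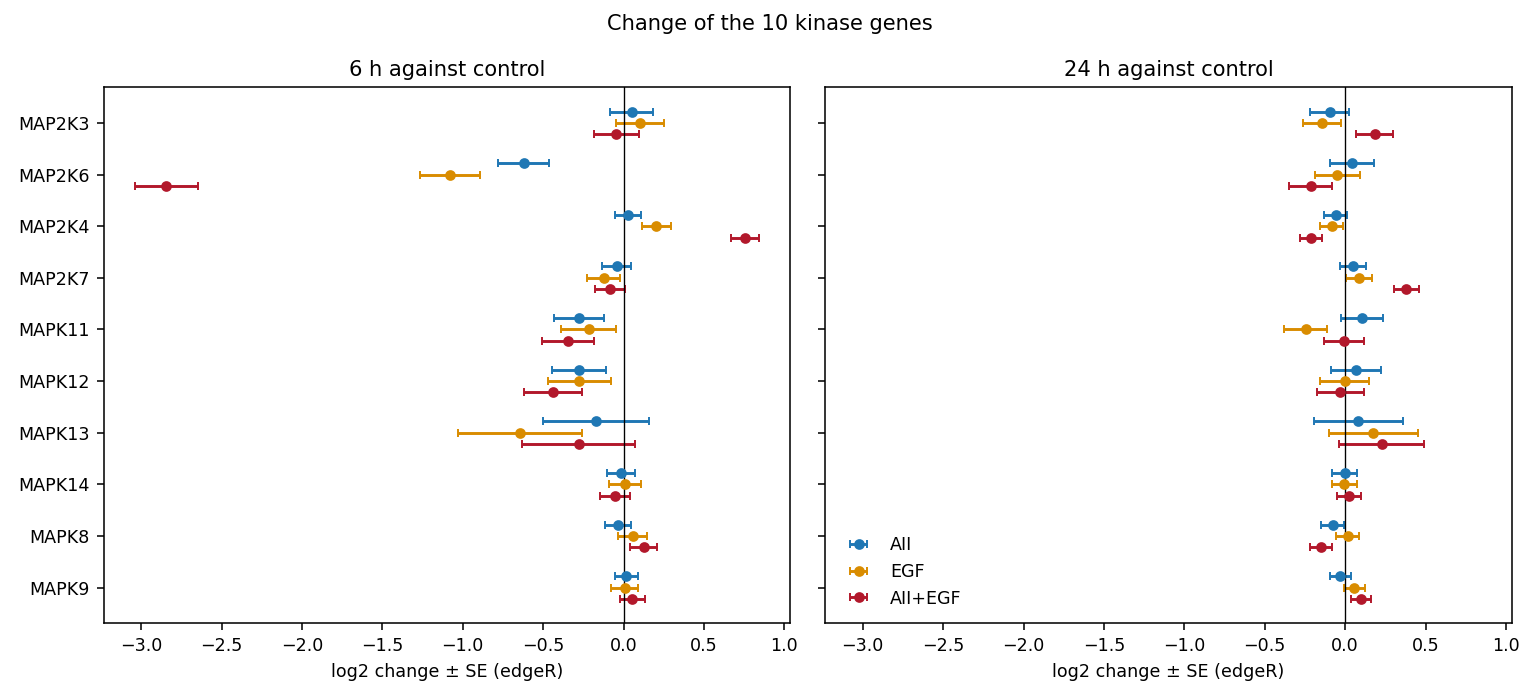
Log2 change against the control of the same time for the 10 genes at 6 h (left) and 24 h (right), with points for the edgeR estimate and bars for its SE, in blue for AII, orange for EGF and red for AII + EGF. At 6 h MAP2K6 reaches -2.84 and MAP2K4 0.76 with both stimuli, and at 24 h the largest change with both is 0.38 in MAP2K7.

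No p38 gene passed the test with 1 stimulus or at 24 h, and with both stimuli at 6 h their libraries overlapped those of control. MAPK14, the p38 alpha gene (ENSG00000112062, chromosome 6, 36027808 to 36124214), kept to 71.0 to 74.1 CPM in the 4 group means at 6 h and to 63.9 to 65.2 CPM at 24 h, and its log2 changes against control were between -0.05 and 0.02 with SE from 0.08 to 0.10. MAPK11, the p38 beta gene (ENSG00000185386, chromosome 22, 50263713 to 50270380), differed from control by -0.28 ± 0.15 with AII (adjusted p = 0.486), -0.22 ± 0.17 with EGF (adjusted p = 0.570) and -0.35 ± 0.16 with both at 6 h. MAPK12, the p38 gamma gene (ENSG00000188130, chromosome 22, 50252901 to 50261683), differed by -0.28 ± 0.17 (adjusted p = 0.555), -0.28 ± 0.20 (adjusted p = 0.507) and -0.44 ± 0.18. Without control 6 h replicate 6 these MAPK12 values were -0.05 (adjusted p = 0.948), -0.06 (adjusted p = 0.946) and -0.21. MAPK13, the p38 delta gene (ENSG00000156711, chromosome 6, 36130513 to 36144521), was scarce with 1.32 to 3.46 CPM in the group means, and its SE of 0.26 to 0.38 leaves room for changes that this depth could not show. At 24 h the adjusted p of the 4 p38 genes against control lay between 0.401 and 1.00.

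MAPK12 varied with the position of a library in the titles more than with the stimuli. In the last stretch of titles, with 1 library in each 24 h group, it was 108.4 CPM in control, 106 with AII, 112 with EGF and 103 with both, while the other kept 24 h libraries lay between 60.0 and 84.8 CPM. At 6 h control replicate 6 had 94.8 CPM against 50.6, 54.6 and 63.9 in the other kept controls. What the last titles share beyond their place is not given by the labels, and its part in the result was not tested.

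The JNK genes also stayed near control. MAPK8, the JNK1 gene (ENSG00000107643, chromosome 10, 48306677 to 48439360), was 86.3 ± 2.34 CPM in control 6 h and 94.1 ± 5.46 with both stimuli (SD, n = 4 each), a log2 difference of 0.12 ± 0.08 with overlapping libraries. It was higher with both than with AII alone in every kept library, by 0.16 ± 0.08, and did not pass (adjusted p = 0.138). MAPK9, the JNK2 gene (ENSG00000050748, chromosome 5, 180233143 to 180292083), was 82.4 ± 9.55 CPM in control and 85.6 ± 3.70 with both, a difference of 0.05 ± 0.08. At 24 h the change with both stimuli was -0.15 ± 0.07 for MAPK8 (adjusted p = 0.118) and 0.10 ± 0.06 for MAPK9 (adjusted p = 0.285). Over the 10 members the median log2 change with both stimuli was -0.07 at 6 h and 0.01 at 24 h, against -0.03 and -0.02 over all tested genes.

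Unstimulated cells differed between the times. Of all genes, 6.73% were called between control 24 h and control 6 h, and of the members only MAPK11 was, with 8.54 ± 1.79 CPM at 6 h (SD, n = 4) and 13.7 ± 3.15 CPM at 24 h (n = 6), 1.60-fold higher (log2 0.68 ± 0.15, adjusted p = 0.000524). Its libraries overlapped between the times. Without control 24 h replicate 2 or control 6 h replicate 4 the change was 0.58 and fell below the fold minimum, and with all 48 libraries it was 0.56 and was not called. MAP2K4 fell by 0.42 ± 0.08 on the log2 scale (adjusted p = 7.49e-05), MAPK8 fell by 0.37 ± 0.08 (adjusted p = 0.000324) and MAPK9 fell by 0.32 ± 0.07 (adjusted p = 0.000598), each by less than 1.5-fold. Among the kept libraries MAP2K4 and MAPK8 did not overlap between the times, where 15.1% of all genes did not. Control 6 h replicates 1 and 2, left out, gave 37.4 and 38.9 CPM of MAP2K4 and 74.0 and 71.6 CPM of MAPK8. These values lie within those of control 24 h, 31.4 to 40.9 and 55.9 to 80.1 CPM. Over the other fits (edgeR or DESeq2) the adjusted p of the fall reached 0.0546 for MAP2K4, 0.0456 for MAPK8 and 0.0534 for MAPK9. Each stretch of titles held libraries of 1 time, so time and place in the titles cannot be told apart.

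The wider pathway was covered by 48 genes, all of them tested, that are MAP3Ks, scaffolds and adaptors, kinases downstream of p38, transcription factors and phosphatases. With both stimuli for 6 h, 5 were called higher and 5 lower than control, against 6.45% and 5.53% of all genes. Of the 2351 calls over all genes 1266 were higher, and with library totals in place of TMM factors 922 of 2364 were. AII called 0 of the 48 at 6 h, and EGF called 1, GADD45B, higher by 0.84 ± 0.19 (adjusted p = 0.00300). At 24 h AII and EGF called 0 each and both stimuli called 1, PPM1D, lower. Genes of these lists and of the ERK chains are named below because they were called with both stimuli against control. Their p-values against AII or EGF alone reuse the same AII+EGF 6 h libraries. Those p-values are therefore not independent of the choice of the genes and add no separate support.

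Among the 16 MAP3Ks 1 was called in each direction with both stimuli at 6 h. MAP3K9 was 13.04 ± 1.52 CPM in control and 24.6 ± 1.51 with both (SD, n = 4 each), 1.501-fold higher than with EGF alone (adjusted p = 0.00970). Of all genes, 574 were called against EGF 6 h, but 64 with all 48 libraries and 33 with only the pairs left out. MAP3K10 was 23.5 ± 2.26 and 12.2 ± 1.02 CPM, and its level with both was 0.574 of that with AII alone (adjusted p = 9.49e-05). Both are mixed-lineage kinases that feed JNK, and they moved in opposite directions.

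The 10 scaffolds and adaptors held 4 of the called genes. GADD45B, a small stress-inducible protein that binds MAP3K4, went from 12.6 ± 2.09 to 45.7 ± 4.55 CPM, by 1.86 ± 0.18 on the log2 scale against control, and was 2.04-fold higher with both than with EGF (adjusted p = 0.000215). GADD45A differed from control by 0.63 ± 0.13, GADD45G by -0.64 ± 0.17, and TAB1, a partner of the MAP3K TAK1 that also binds p38 alpha, by -0.80 ± 0.12. TAB1 was lower with both stimuli than with EGF (-0.59 ± 0.13, adjusted p = 0.00160) and than with AII (-0.59 ± 0.12, adjusted p = 0.000128).

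Of 7 kinases downstream of p38, MAPKAPK2 went from 52.4 ± 8.31 to 88.2 ± 8.85 CPM with both stimuli at 6 h and MKNK1 from 30.7 ± 1.75 to 18.3 ± 1.35 CPM (SD, n = 4 each). MAPKAPK2 was 1.501-fold higher than with AII alone (adjusted p = 0.000164), and MKNK1 was 0.718 of its level with AII alone (adjusted p = 4.28e-06). Of 10 transcription factors phosphorylated by p38 or JNK, DDIT3 was the called gene, with 5.73 ± 0.797 CPM in control and 2.84 ± 0.542 with both, and its difference from AII alone was -0.29 ± 0.20 (adjusted p = 0.306).

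Of 5 phosphatases, DUSP1, an inducible phosphatase of MAP kinases, was 23.4 ± 2.26 CPM in control 6 h and 41.3 ± 2.45 with both stimuli, and was 1.88-fold higher than with AII alone (adjusted p = 4.00e-06). PPM1D was 47.8 ± 4.88 CPM in control 24 h and 31.2 ± 2.39 with both (SD, n = 6 each), a log2 change of -0.62 ± 0.08 (adjusted p = 4.83e-07). Among 9 genes of the ERK chains, 1 was called with both stimuli at 6 h. This was MAP2K1, the MEK1 gene, with 66.9 ± 4.55 CPM in control and 125 ± 8.27 with both (n = 4 each), 1.60-fold higher than with AII alone (adjusted p = 2.19e-07).

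Among the 5 genes whose levels were most like those of MAP2K6 over the 38 kept libraries, by Pearson's r of log2 CPM among 11763 genes with a mean above 5 CPM, were TNFRSF19 (r = 0.963), UNC5C (0.960), CYP4V2 (0.943) and SLC35E2B (0.943). The libraries share treatments and titles, and r over the libraries within groups was 0.183 for UNC5C and 0.571 for TNFRSF19, so the likeness was mostly one of group means. UNC5C, a netrin receptor, went from 9.95 ± 0.772 CPM in control 6 h to 2.104 ± 0.299 with both stimuli and was 13.4 ± 0.945 CPM with both at 24 h. CYP4V2, a fatty acid hydroxylase, went from 22.3 ± 2.33 to 9.13 ± 0.810 CPM and was 20.3 ± 3.39 CPM with both at 24 h.

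The same measure for MAP2K4 gave BZW1 (r = 0.979), SEH1L (0.974), TMEM33 (0.973), GFM1 (0.970) and NETO2 (0.968). Within groups r was 0.616 to 0.805 for these 5. SEH1L, a nucleoporin, was 67.9 ± 3.08 CPM in control 6 h, 129 ± 11.8 with both stimuli and 49.0 ± 4.28 with both at 24 h. GFM1, a mitochondrial translation factor, was 53.7 ± 2.77, 97.7 ± 9.94 and 28.6 ± 3.88 CPM in these groups.

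**Figure D4:**
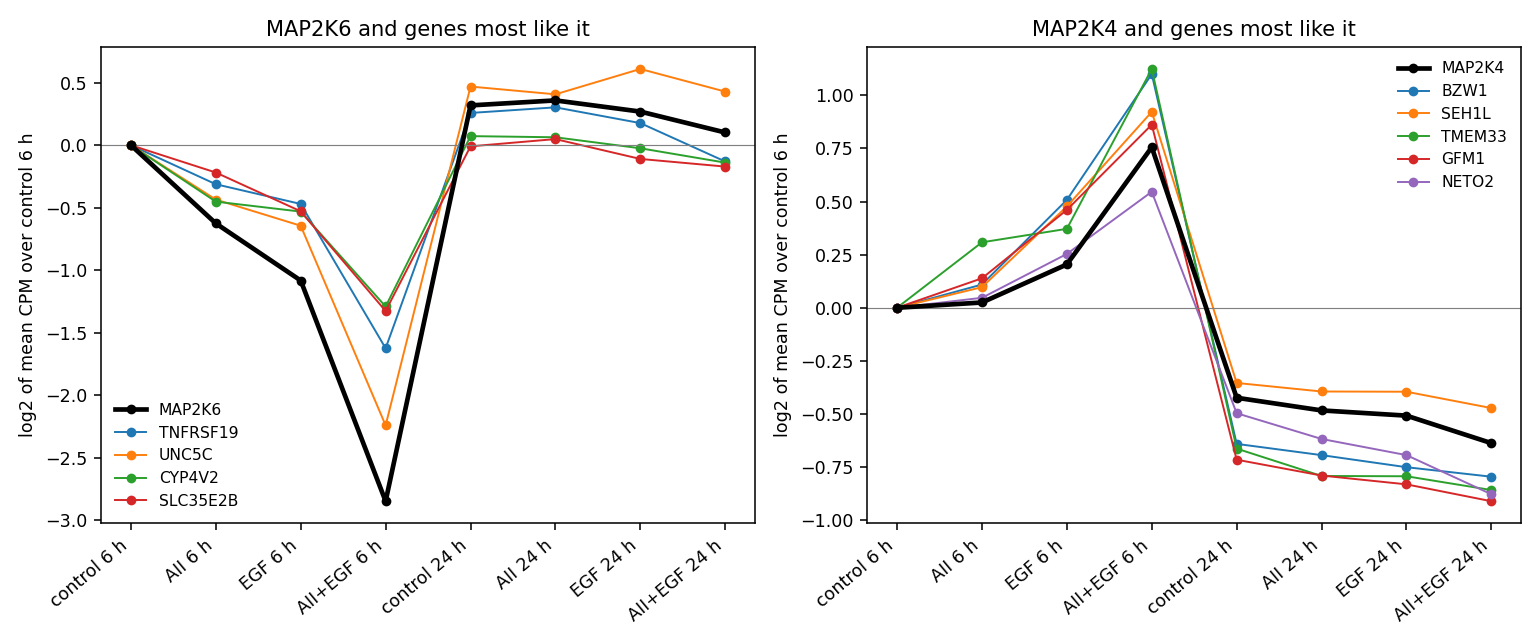
Log2 of the mean CPM of each group over that of control 6 h for MAP2K6 (left) and MAP2K4 (right), drawn as thick black lines, and for genes most like each (4 at left, 5 at right), drawn as thin lines. Among the genes at left MAP2K6 falls furthest with both stimuli at 6 h, and at 24 h all 5 genes drawn lie closer to their control 6 h level.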

How the data were processed

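The authors mapped the reads to hg38 with HISAT2 2.1.0, counted them per Ensembl gene with featureCounts (per the labels and the study's methods) and deposited raw counts of 48 libraries in 1 table, unnormalised. Whether counting used strand is not given in the sources used here. Members, lists and tests were chosen with earlier results of these data known.

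Groups came from the sample labels. Replicates are numbered by accession and carry no pairing. Of 48 libraries, 38 were kept, with 17.8 to 29.96 M counts, so that the lowest MAP2K6 levels rest on 22 to 33 counts. Counts were fitted with edgeR 4.0.16 (R 4.3.3), TMM factors, filterByExpr (19626 genes) and 1 quasi-likelihood fit over 8 groups. P-values were Benjamini-Hochberg adjusted over all tested genes. A call needed adjusted p under 0.01, 1.5-fold and a mean above 5 CPM. The steps were tested on simulated data.

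All 10 members were named, and of each other list up to 4 called genes with the largest change under both stimuli. A marker gene and a gene like MAP2K6 are not reported here. Alternatives were all 48 libraries, only the pairs left out, DESeq2 1.42.0, RLE factors, library totals, no filter, the study's filter, title runs as a term, only the compared groups, other thresholds and leaving out each library. Lengths were from GENCODE 44, whereas counting used another release. The other length definitions were added after seeing the data. Positions and promoters were from RefSeq on GRCh38.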

Additional observations from a re-analysis of the deposited data

Results flagged for a closer look

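In 4 of 70 groups of 4 or more libraries, taken gene by gene, 1 library lay far from the others by Dixon's criterion, which chance gives in about 1 in 20 groups. In AII+EGF 24 h replicate 6, MAP2K6 was 14.8 CPM against 9.08 to 10.8 in the other libraries of the group, and MAPK12 was 103 CPM against 67.0 to 77.7. In AII 24 h, MAPK14 was 74.8 CPM in replicate 3 against 58.5 to 63.1, and MAPK8 was 69.8 CPM in replicate 6 against 61.0 to 62.2.

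The response to AII + EGF differed between the times in 2 members outside MAP2K6. The log2 response at 24 h minus that at 6 h was -0.97 for MAP2K4 and 0.46 for MAP2K7, both with an edgeR adjusted p under 0.01 in the reported fit. That of MAP2K7 reached 0.02045 over the other fits (edgeR or DESeq2).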

How the results depend on the processing

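No paired analysis was possible because the labels carry no replicate numbers. None of the results changed direction while called. Of the members with a test, 0 instead of 1 was called for AII+EGF 6 h against AII 6 h with all 48 libraries and with only the pairs left out. Between the control times 0 instead of 1 was called with all 48 libraries and in a fit of only the 2 control groups. Without the fold minimum 4 members were called between the control times, 2 for the difference of responses between 24 h and 6 h, and 1 each for AII+EGF 24 h against control and against AII and for AII+EGF 6 h against EGF. Leaving out 1 library gave 0 to 1 members for AII+EGF 6 h against EGF 6 h (1 without EGF 6 h replicate 5) and 0 to 1 between the control times (0 without control 24 h replicate 2 or control 6 h replicate 4), and changed no other count of members. The title-run fit could not compare the control times. The share of MAP2K6 in MAP2K3 and MAP2K6 was 20.8% by coding length and 5.44% by all exons in control 6 h, and 3.63% and 0.816% in AII+EGF 6 h, where it was 1.09% with all 48 libraries and 1.00% with only the pairs left out.

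Counts over all genes moved as well. For AII+EGF 6 h against control they were 1604 to 2443 over the other fits, against 2351, and 3697 without the fold minimum. The lowest and highest counts over the other fits were 0 and 168 for the interaction at 6 h (45 in the reported fit), 302 and 1688 for AII+EGF 6 h against AII 6 h (1492), 33 and 743 against EGF 6 h (574), 121 and 508 for EGF 6 h against control (381), 13 and 190 for EGF 6 h against AII 6 h (132), and 352 and 1358 between the control times (1320). At 24 h they were 2 and 137 for EGF (48) and 344 and 698 for AII+EGF against control (569), 1 and 73 for AII+EGF against EGF (18) and 134 and 390 against AII (285), and for the difference of responses 1292 and 2681 (2273). For the interaction at 6 h, the fit of only the compared groups called 109 and the fit without a filter 21. Depth limits MAPK13 and MAP2K6 under both stimuli most.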
